A study of Caenorhabditis elegans with 4 samples.

Results

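The small heat shock genes of Caenorhabditis elegans that lie outside the hsp-16 clusters were examined in worms given nitric oxide (NO). The genes were listed by name: hsp-12.1, hsp-12.2, hsp-12.3, hsp-12.6, hsp-17, hsp-25, hsp-43, sip-1, F08H9.3 and F08H9.4. Of these 10 genes, 8 had a locus under their name among the 16562 loci of the authors' deposited table. F08H9.3 and F08H9.4 were not analysed here, and RefSeq's gene table gives this neighbouring pair the symbols hsp-16.20 and hsp-16.21, so current naming places both with the hsp-16 genes. Each of the 8 measured genes had a locus of its own, and all 8 passed a minimum mean of 1 FPKM (fragments per kilobase of transcript, scaled to library size).

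The groups were 2 NO samples and 2 control samples, all of them whole wild-type animals labelled L4, the last larval stage, and fed E. coli OP50 at 20 °C. NO came from 1 mM MAHMA NONOate, a donor that gives off NO once dissolved, and animals recovered for 4 h before RNA was extracted. The labels give the same protocol text for both groups, so how control animals were handled is not stated, and the donor compound, handling and NO cannot be told apart. The authors' deposited table holds 1 value for each condition, with its 2 samples already combined, so neither the spread between samples nor library depth is known, and whether the samples came from separate cultures is not stated.

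Small heat shock proteins share an alpha-crystallin domain, assemble into oligomers and bind unfolding proteins without using ATP, which keeps those proteins available for refolding by the HSP70 system. In C. elegans the hsp-16 genes are the classical heat-inducible members, switched on by the transcription factor HSF-1, whereas many of the others are made constitutively or at set stages and in set tissues. SIP-1 is known from oocytes and embryos, HSP-25 from the dense bodies and M-lines of body wall muscle, and the HSP-12 proteins are unusually short, several of them without chaperone activity in vitro.

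None of the 8 measured genes was called different between NO and control worms at an adjusted p of 0.05 in the authors' deposited test, against 0.399% of all loci. None passed an unadjusted p of 0.05 either, a threshold that 3.09% of all loci passed in the deposited test. The deposited folds of NO over control ran from 0.672 for hsp-12.6 to 1.18 for hsp-43, with 3 genes above 1 and 5 below. On the log2 scale after adding 1 FPKM to each condition, the median of the 8 genes was -0.07, beside -0.03 over the 14285 loci that averaged 1 FPKM or more. A share of 0 in 8 lies close to the background of the whole table and is not a result about these genes as a group. Each gene's standard error (SE) set how large a change could have gone uncalled, and it differed widely among them.

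**Figure D1:**
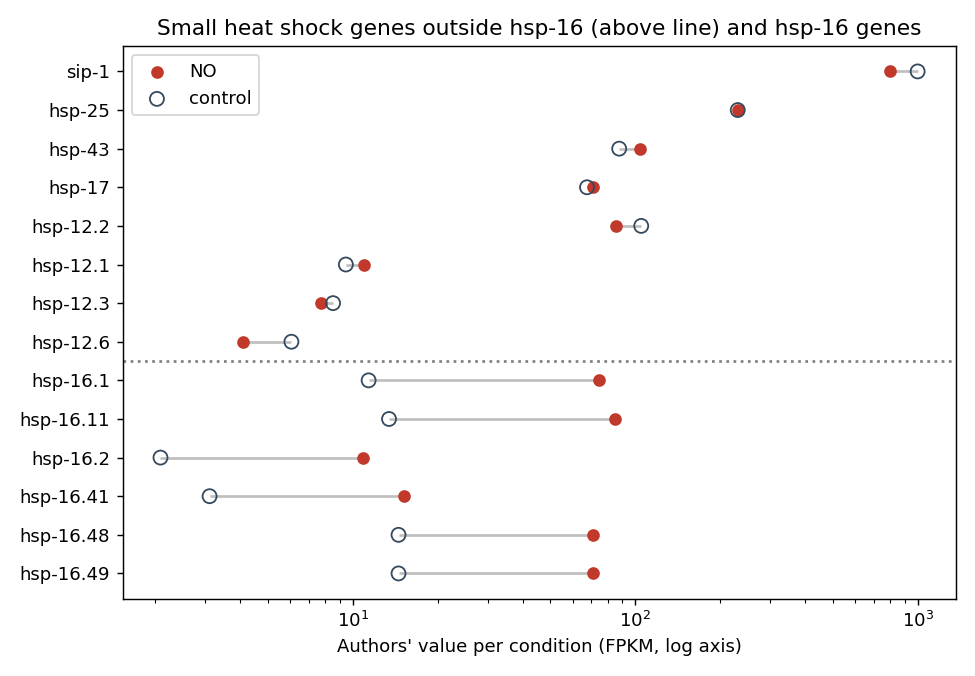
Values in FPKM (log axis) of the 8 measured small heat shock genes outside hsp-16, above the dotted line, and of 6 hsp-16 genes below it, with filled points for NO and open circles for control. Above the line the points of a gene lie close together, from 794 and 999 FPKM for sip-1 to 4.08 and 6.07 FPKM for hsp-12.6, whereas every hsp-16 gene has its NO point far to the right of its control point.

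sip-1, which encodes a developmental small heat shock protein of oocytes and embryos, was the most abundant of the set. In the authors' deposited table it had 794 FPKM in NO worms and 999 FPKM in control worms, rank 215 of all loci by mean value. Its log2 fold in the authors' deposited test was -0.33 (SE 0.28, unadjusted p = 0.236, adjusted p = 0.99994). Each SE here was derived from the deposited test statistic, and the 95% interval built from it ran from 0.545-fold to 1.16-fold. This was the narrowest interval of the set, so a rise above 1.16-fold lay outside it and a decrease to 0.545-fold did not. Among the 302 loci whose mean lay within 2-fold of that of sip-1, 13.6% had a lower log2 fold.

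Markers of oocytes and early embryos likewise had lower values in NO worms, although none was called. Of 16 listed marker genes 15 had a locus, and all 15 had a lower value in NO than in control worms in the deposited table. Of the 15621 loci with a value in both conditions, 8161 had a lower value in NO worms. Markers of 1 tissue can move together, so these 15 markers are not 15 separate observations. Their log2 folds ran from -0.62 to -0.24 with a median of -0.50, beside -0.04 over all loci that averaged 1 FPKM or more. The markers are abundant, and abundant loci ran lower as a whole. After adding 1 FPKM, the median log2 ratio was -0.15 in bin 9 and -0.14 in bin 10, the highest of 10 abundance bins. None of the 15 was called at an adjusted p of 0.05 in the authors' deposited test, and 1 of them, the eggshell gene cbd-1, had an unadjusted p under 0.05 (p = 0.0292), against 0.338% of all loci that were lower at that threshold. Their summed level was 4430 FPKM in NO worms and 6197 FPKM in control worms, and no marker was at 0 in either condition. The most abundant markers were perm-2, which is needed for the eggshell's permeability barrier, and cpg-1, which encodes an eggshell proteoglycan, with deposited log2 folds of -0.52 (SE 0.27) and -0.51 (SE 0.36). The log2 fold of sip-1 was 0.17 above the median of the list, and 1 of the 15 markers, chs-1, had a higher log2 fold than sip-1. That value belongs to a locus in which chs-1 is joined with a second gene. The part of oocyte content in the value of sip-1 was not tested. In whole animals fewer oocytes, less RNA in each oocyte and a difference in stage between the groups cannot be told apart. A noncoding RNA gene annotated on the opposite strand of sip-1, F43D9.8, had a locus of its own at 2215 FPKM in NO and 2366 FPKM in control worms (log2 fold -0.09, SE 1.30). The labels do not say that reads were assigned by strand, so reads of this pair may not be separable.

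hsp-25 and hsp-43 encode the larger proteins of the set, with longest annotated coding sequences of 219 and 393 codons. The shortest annotated coding sequence of hsp-25 has 108 codons. hsp-25, whose product is found at muscle attachment structures, had 230.2 FPKM in NO worms and 230.5 FPKM in control worms in the authors' deposited table. The log2 fold in the authors' deposited test was -0.0024 (SE 0.34, unadjusted p = 0.994), and only 0.432% of the 1158 loci of similar abundance had a smaller log2 fold in either direction. The 95% interval of hsp-25 nevertheless ran from 0.628-fold to 1.59-fold, so near-identical values do not bound its change any more tightly than that. hsp-43 had 103.6 FPKM in NO worms and 87.7 FPKM in control worms in the deposited table, the highest fold of the set at 1.18. Its log2 fold in the authors' deposited test was 0.24 (SE 0.35, unadjusted p = 0.490, adjusted p = 0.99994), with a 95% interval from 0.736-fold to 1.90-fold.

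Markers of body wall muscle, which includes the dense bodies where HSP-25 is found, gave a median log2 fold of 0.08 in the deposited table. Of 15 listed genes 14 had a locus, 10 were above 0 and 4 below, and none had an unadjusted p under 0.05, against 3.09% of all loci. Their summed level was 5338 FPKM in NO worms and 5299 FPKM in control worms. The most abundant of them, the muscle troponin C gene pat-10, had 2892 FPKM in NO worms and 2927 FPKM in control worms, followed by the troponin I gene unc-27 with 780.2 FPKM in NO worms and 828 FPKM in control worms. The ratio of NO to control was 1.007 for the summed muscle markers and 0.998 for hsp-25. That sum rests largely on pat-10, with 2892 of the 5338 FPKM in NO worms. Whether hsp-25 follows muscle content was not tested. On the opposite strand, hsp-25 overlaps the annotated gene ipp-5, which had 13.5 FPKM in NO worms and 13.4 FPKM in control worms, far below hsp-25.

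hsp-17 encodes a protein of 148 or 149 codons by annotated isoform, close in length to the hsp-16 products, and is described in C. elegans as promoting the aggregation of client proteins. It had 70.9 FPKM in NO worms and 67.5 FPKM in control worms, and the authors' deposited test gave a log2 fold of 0.07 (SE 0.77, unadjusted p = 0.927). Its SE was larger than that of 93.8% of the 3080 loci of similar abundance, whose median SE was 0.39, and its 95% interval ran from 0.370-fold to 2.98-fold. With that interval, the table bounds the change of hsp-17 less well than that of sip-1, hsp-25 or hsp-43. The annotated gene F52E1.14 overlaps hsp-17 on the opposite strand and was listed at 425 FPKM in NO worms and 388 FPKM in control worms. As for sip-1, reads of this pair may not be separable, so the level of hsp-17 is uncertain too.

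Judged by longest annotated coding sequence, the 4 hsp-12 genes encode the shortest proteins, at 109 to 112 codons, and were spread over a wide range of levels. hsp-12.2 was the abundant one, at 85.4 FPKM in NO worms and 105 FPKM in control worms, and the authors' deposited test gave a log2 fold of -0.30 (SE 0.57, unadjusted p = 0.600) and a 95% interval from 0.377-fold to 1.76-fold. It stood 11.08-fold above hsp-12.3 in NO worms and 12.33-fold above it in control worms, a comparison per transcript length. hsp-12.2 overlaps the annotated gene C14B9.8 on the opposite strand, which had 20.9 FPKM in NO worms and 22.9 FPKM in control worms. Reads of this pair may not be separable either.

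hsp-12.1 had 10.9 FPKM in NO worms and 9.46 FPKM in control worms in the deposited table. Its log2 fold of 0.21 in the authors' deposited test (SE 0.96, unadjusted p = 0.827) came with the widest interval of the set, from 0.316-fold to 4.24-fold. At that SE a change of 11.97-fold would have been needed to pass the adjusted threshold, as judged by the weakest test statistic among called loci. The corresponding size was 2.06-fold for sip-1, 2.43-fold for hsp-25, 2.47-fold for hsp-43, 4.35-fold for hsp-12.2 and 7.36-fold for hsp-17.

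hsp-12.3 and hsp-12.6 are adjacent genes, and both were weakly expressed. hsp-12.3 had 7.71 FPKM in NO worms and 8.52 FPKM in control worms, with a log2 fold of -0.14 in the authors' deposited test (SE 0.65, unadjusted p = 0.826). hsp-12.6, a target of the insulin-regulated transcription factor DAF-16 that contributes to long life in insulin receptor mutants, had 4.08 FPKM in NO worms and 6.07 FPKM in control worms. Its log2 fold of -0.57 in the authors' deposited test was the lowest of the set, but its SE of 0.80 gave a 95% interval from 0.226-fold to 1.999-fold (unadjusted p = 0.474). At these SEs a change of 5.42-fold for hsp-12.3 and 8.05-fold for hsp-12.6 would have been needed for a call, so the deposited test could not have resolved a change of a few-fold in either gene. The deposited log2 folds of this adjacent pair, -0.14 and -0.57, differed by less than either SE.

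Ordered by level, the set ran from sip-1 through hsp-25 to a group of hsp-43, hsp-12.2 and hsp-17, then to hsp-12.1, hsp-12.3 and hsp-12.6. The order was the same in NO and control worms except that hsp-43 stood above hsp-12.2 in NO worms and below it in control worms. sip-1 was 3.45-fold above hsp-25 in NO worms and 4.33-fold above it in control worms, and 195-fold above hsp-12.6 in NO worms and 165-fold above it in control worms. Whether neighbours within the middle group or among the 3 lowest genes differ in level cannot be judged without values of single samples.

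The hsp-16 genes showed the other behaviour of this protein family in the same deposited table. All 6 hsp-16 genes had higher values in NO than in control worms, with deposited folds from 4.86 to 6.54, and 4 of them were called higher at an adjusted p of 0.05, against 0.386% of all loci. The highest of them, hsp-16.11, had 85.004 FPKM in NO worms and 13.4 FPKM in control worms, and hsp-16.1 had 74.5 FPKM in NO worms and 11.4 FPKM in control worms. hsp-16.48 and hsp-16.49, the other called genes, each had 71.1 FPKM in NO worms and 14.5 FPKM in control worms. The 2 that were not called were the weakest, hsp-16.2 with 10.9 FPKM in NO worms and 2.09 FPKM in control worms and hsp-16.41 with 15.1 FPKM in NO worms and 3.11 FPKM in control worms. The upper ends of the 95% intervals of all 8 genes outside hsp-16, the largest of them 4.24-fold for hsp-12.1, lay below the smallest hsp-16 fold of 4.86. The intervals themselves overlapped for some pairs of genes, since the lower ends for hsp-16.2 and hsp-16.41 were 1.37-fold and 1.60-fold, and the difference between the 2 sets was not tested. hsp-16.48 and hsp-16.49 carry identical values, and hsp-16.1 and hsp-16.11 are near-identical copies, so the 6 genes are fewer than 6 separate measurements.

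**Figure D2:**
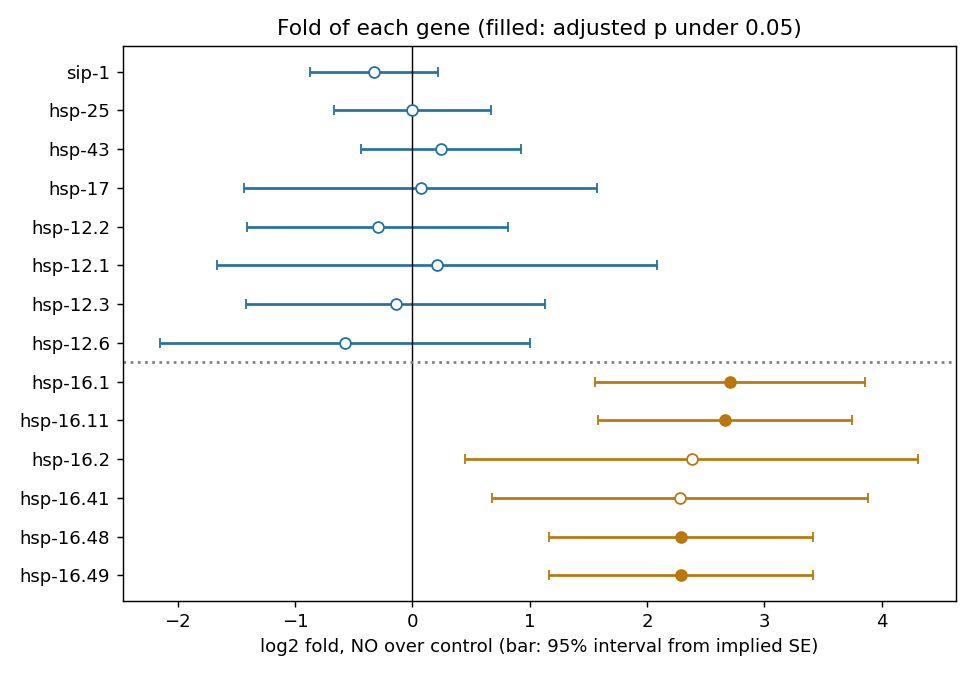
Deposited log2 fold of NO over control for each gene, with a bar for the 95% interval from the implied SE and a filled point where the adjusted p was under 0.05. The bars of all 8 genes outside hsp-16, in the upper block, cross 0, and the bars of the 6 hsp-16 genes lie above 0, with 4 filled points.

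Summed per transcript length, the 8 genes outside hsp-16 held 1307 FPKM in NO worms and 1514 FPKM in control worms, a ratio of 0.864. Nearly all of that difference of -206 FPKM came from sip-1, since the other 7 genes summed to 513 FPKM in NO worms and 515 FPKM in control worms, a ratio of 0.996. The hsp-16 genes summed to 328 FPKM in NO worms and 59.1 FPKM in control worms. Of the total of all 14 measured small heat shock genes, the hsp-16 genes thus held 20.04% in NO worms and 3.76% in control worms. sip-1 held 48.6% of it in NO worms and 63.5% in control worms, while hsp-25 held 14.1% in NO worms and 14.7% in control worms. The total itself was 1635 FPKM in NO worms and 1573 FPKM in control worms, which differ less than either family's own sum. With hsp-16.48 and hsp-16.49, whose values are identical, counted once, the hsp-16 share was 16.408% in NO worms and 2.86% in control worms, and the total was 1564 FPKM in NO worms and 1558 FPKM in control worms. These sums have no error, because the table gives 1 value per condition.

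**Figure D3:**
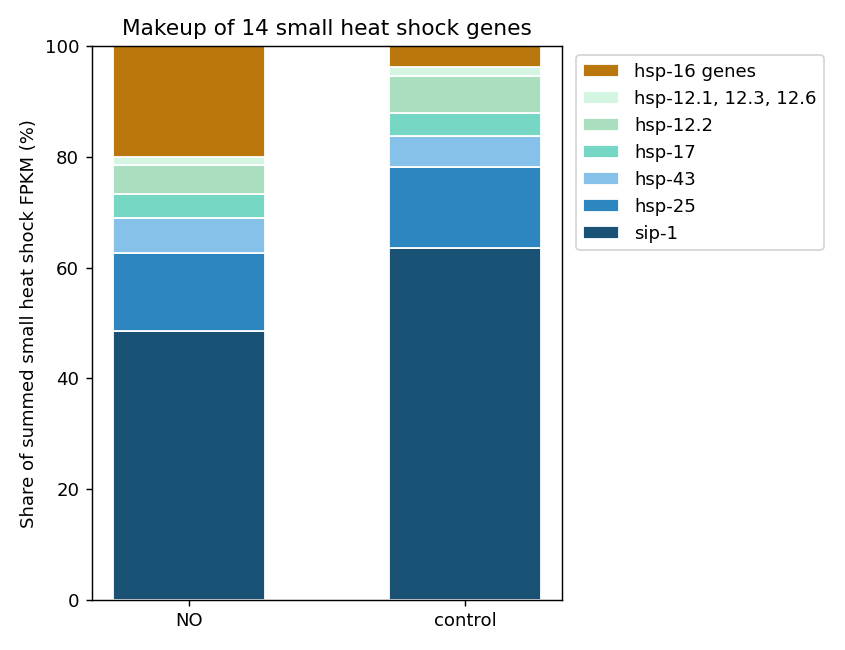
Share in percent of the summed FPKM of 14 small heat shock genes held by each gene or group, for NO on the left and control on the right. The hsp-16 segment at the top is 20.04% in NO worms and 3.76% in control worms, and the sip-1 segment at the bottom is 48.6% in NO worms and 63.5% in control worms.

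Levels relative to single hsp-16 genes differed between the conditions. hsp-17 stood at 0.952 times the level of hsp-16.1 in NO worms and at 5.93 times that level in control worms, per transcript length. sip-1 stood above hsp-16.11 in both, by 9.35-fold in NO worms and 74.3-fold in control worms. In control worms, then, 5 of the 8 genes outside hsp-16 stood above every hsp-16 gene, and in NO worms sip-1, hsp-25, hsp-43 and, narrowly, hsp-12.2 did. Because hsp-16.1 and hsp-16.11 are near-identical and hsp-16.48 and hsp-16.49 carry identical values, these single levels may depend on how shared reads were divided.

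Regulators and partners of small heat shock proteins were listed by their known roles. The list was made with earlier results of these data known, so its count of called genes is not a test of enrichment. Of 17 genes for HSF-1, its binding partners and cytosolic chaperones, 2 were called higher and none lower in the deposited test, against 0.386% of all loci called higher and 0.0121% called lower. The list's median log2 ratio was -0.13. The 2 called genes were F44E5.4 and F44E5.5, neighbouring copies of stress-inducible HSP70, with log2 folds in the authors' deposited test of 3.41 (SE 0.53, adjusted p = 2.31e-07) and 3.28 (SE 0.52, adjusted p = 6.28e-07). hsp-70, another inducible HSP70 gene, had 3.30 FPKM in NO worms and 0.424 FPKM in control worms (unadjusted p = 0.0194, adjusted p = 0.99994). The other 14 genes of the list had deposited log2 folds below 0 and were not called. Among them hsf-1 itself had 39.7 FPKM in NO worms and 44.3 FPKM in control worms (log2 fold -0.16, SE 0.37). The constitutive HSP70 gene hsp-1 had 1637 FPKM in NO worms and 1715 FPKM in control worms (log2 fold -0.07, SE 0.31). The HSP90 gene daf-21, in a locus joined with a second gene, had 1502 FPKM in NO worms and 1644 FPKM in control worms. The deposited log2 fold of daf-21 was -0.13 with an SE of 1.72, the largest of the list, so its change is hardly bounded. The called genes of this list and of the hsp-16 genes had control values no higher than 14.5 FPKM.

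Genes of insulin and DAF-16 signalling, the pathway that controls hsp-12.6, were not called. Of 12 listed genes, none passed an adjusted p of 0.05 in the deposited test, against 0.399% of all loci, and none an unadjusted p of 0.05, against 3.09% of all loci, so the count lies at the background of the table. Of the 12, 3 were above 0 and 9 below, and the median log2 ratio was -0.16. daf-16 had 75.3 FPKM in NO worms and 78.3 FPKM in control worms (log2 fold -0.06, SE 0.40). skn-1, a transcription factor gene of the oxidative stress response, had a deposited log2 fold of -0.12 (SE 0.43).

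Markers of other tissues were present in both groups. The intestine list, 9 of 11 genes with a locus, had a median log2 fold of -0.05, the pharynx list, 7 of 8, had 0.22 and the sperm list, 9 of 9, had 0.13. Log2 folds were above 0 for 3 and below 0 for 6 of the intestinal genes, above for 5 and below for 2 of the pharyngeal genes, and above for 5 and below for 4 of the sperm genes. None of their genes was called at an adjusted p of 0.05 in the authors' deposited test, against 0.399% of all loci, none was at 0 in either condition, and 1 intestinal gene, cpr-1, was higher at an unadjusted p under 0.05 (p = 0.0121), against 2.75% of all loci that were higher at that threshold. Summed levels were 2142 FPKM in NO and 2163 FPKM in control worms for intestine, 248 FPKM in NO and 238 FPKM in control worms for pharynx, and 2965 FPKM in NO and 2946 FPKM in control worms for sperm. Among the most abundant genes of these lists, the intestinal metallothionein gene mtl-2 had a deposited log2 fold of -0.04 (SE 0.34) and the gut actin gene act-5 one of -0.36 (SE 0.30). The pharyngeal troponin genes tni-4 and tnc-2 had 0.01 (SE 0.39) and -0.14 (SE 0.38), in a list that ran from -0.17 to 1.03. The major sperm protein genes msp-19 and msp-31 had -0.05 (SE 0.29) and -0.09 (SE 0.43), in a list that ran from -0.09 to 0.47. The oocyte list, with a summed ratio of 0.715, was thus the one tissue list of these 5 whose genes were all on one side of 0.

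**Figure D4:**
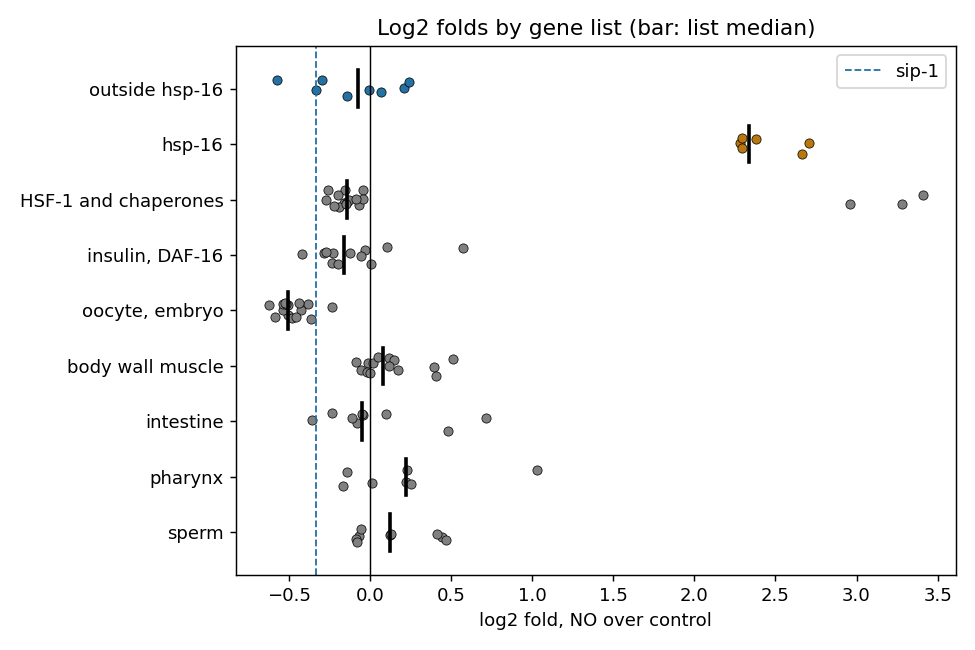
Deposited log2 folds of NO over control by gene list, 1 point per gene, with a black bar at each list's median and a dashed line at sip-1 (-0.33). All 15 oocyte and embryo markers lie below 0, around a median of -0.50, and the hsp-16 genes and the 3 inducible HSP70 genes of the chaperone list lie above 2.

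Against the whole table, the 8 genes lay inside the main cloud of loci at their own abundance. The share of loci of similar abundance with a lower log2 fold ranged from 6.71% for hsp-12.6 to 88.2% for hsp-43. The middle of the cloud itself depended on abundance: after adding 1 FPKM to each condition, the median log2 ratio was 0.10 in the lowest of 10 abundance bins and -0.14 in the highest, which holds sip-1. Relative to its own bin, sip-1 had a log2 ratio of -0.19.

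**Figure D5:**
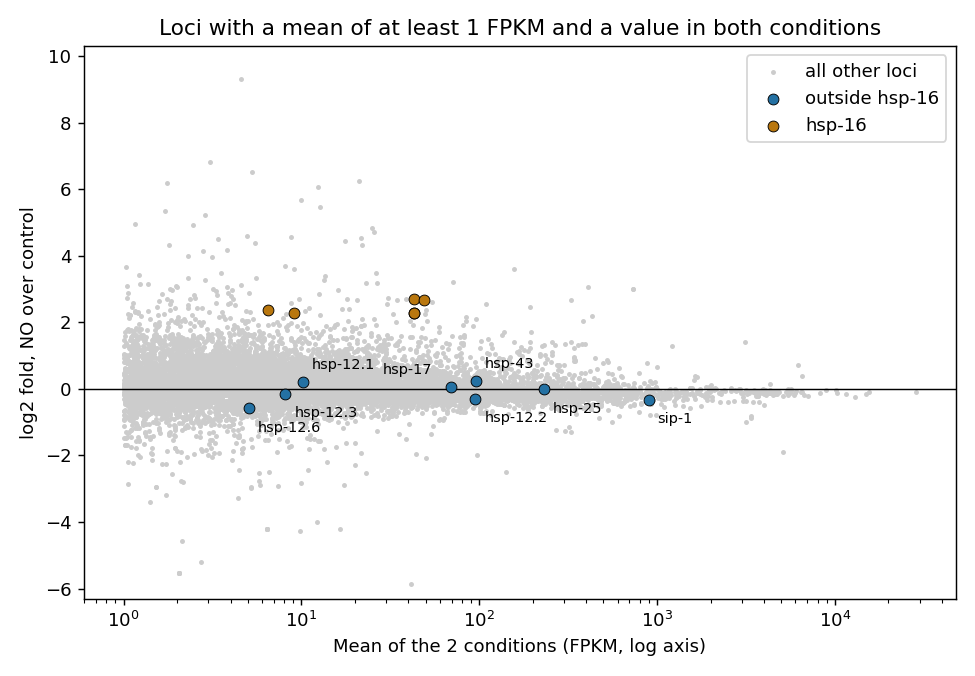
Deposited log2 fold of NO over control against mean value in FPKM (log axis) for loci that averaged 1 FPKM or more and had a value in both conditions, in grey, with the small heat shock genes outside hsp-16 in blue and the hsp-16 genes in orange. The blue points lie between -0.57 and 0.24 inside the cloud, and the orange points between 2.28 and 2.71 near its upper edge.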

How the data were processed

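RNA of 2 NO and 2 control samples was turned into libraries with an Illumina TruSeq RNA kit, per the labels' protocols. The submitters' processing notes list TopHat2 2.0.2, Cufflinks 2.0.5, R 2.15.2. The genome build and annotation are not stated, so coordinates are left out. The deposited table gives 1 value per locus and condition, with replicates combined, read as FPKM from its layout because the unit is unnamed. It also gives the authors' fold, log2 fold, test statistic, p-value and adjusted p.

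Calls used the deposited adjusted p at 0.05, which 66 of 16562 loci passed, and no test was added. The SE was the deposited log2 fold divided by the statistic (sign ignored), and 95% intervals assumed normal error. The smallest change that could be called was the smallest called statistic, 3.75, times the SE. Library depth is unknown, so no counting interval is given. Medians given as log2 ratios used values after adding 1 FPKM, over loci averaging 1 FPKM or more, which makes the changes of weak genes look smaller. Medians given as log2 folds used the deposited log2 fold.

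Coding lengths, neighbours and overlaps came from the Ensembl release 115 annotation (WBcel235), which may differ from the authors' gene models. Genes and lists were chosen with earlier results of these data known. The naming rule took all members, the called and the 2 most abundant genes of each list, hsf-1, daf-16, hsp-1, hsp-70, hsp-16.41, hsp-16.2 and hsp-16.1. Genes overlapping a member, cbd-1, chs-1 and cpr-1 were named after their values were seen. A gene that the rule took from the insulin list is not reported here. Adjustment, SE and calling were tested on simulated data, with Python 3.11.15, pandas 2.3.3 and scipy 1.17.1.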

Additional observations from a re-analysis of the deposited data

How the results depend on the processing

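The count of 0 called among the 8 measured genes was the same at adjusted p thresholds of 0.01 and 0.1, at an unadjusted p of 0.05, and after adjustment over loci averaging at least 1 FPKM (14285 loci, 72 called) or 10 FPKM (8182 loci, with 6 of the 8 genes). Their median log2 ratio was -0.07 with a pseudocount of 1 or 0.1 FPKM, with none, and with no minimum. It was -0.03 when centred on all kept loci, -0.01 when centred by abundance and 0.03 for the 6 genes with a mean of at least 10 FPKM, so its sign is not settled. Without sip-1, an alternative added after seeing the data, it was -0.0024. The number of genes above 0 was 3, or 4 under either centring, where hsp-25 crossed 0. Counting loci of identical value once, also added after seeing the data, put the hsp-16 share of the summed values at 16.408% in NO worms and 2.86% in control worms, against 20.04% in NO worms and 3.76% in control worms with each gene counted. No paired analysis was possible because the table holds combined values per condition, and leaving out single replicates was not possible for the same reason. The limit of these data is the SE, from 0.28 for sip-1 to 0.96 for hsp-12.1.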
